A study of Homo sapiens with 2 samples.

Results

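The HOX genes of human cells lie in 4 clusters, HOXA, HOXB, HOXC and HOXD, and the peak summits deposited for a Myocardin and an IgG chromatin immunoprecipitation, in 1 list, were counted across them. The clusters were taken as fixed windows of GRCh37: HOXA at chr7:27122000-27250000, HOXB at chr17:46596000-46816000, HOXC at chr12:54322000-54460000 and HOXD at chr2:176947000-177065000. Together they hold 38 HOX genes considered here, 10 in HOXA, 10 in HOXB, 9 in HOXC and 9 in HOXD. Of 105637 summits in the deposited list, 116 (0.11%) fell in these windows, 42 in HOXB, 27 in HOXD, 24 in HOXC and 23 in HOXA. The windows are 220 kb long for HOXB, 138 kb for HOXC, 128 kb for HOXA and 118 kb for HOXD.

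The cells were A549, a lung adenocarcinoma line, carrying stable overexpression of MYOCD from the pWPI lentiviral vector. Chromatin of that line was precipitated with anti-Myocardin or with IgG, so both libraries carry the transgene and neither comes from cells without it. There was 1 library per antibody, and the labels do not say whether the line is a single clone. The deposited list ties no summit to either antibody, so every count below describes that list, without a replicate and without a test between antibodies. It holds no expression values, so neither the level of MYOCD nor the identity of the cells could be checked.

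HOX genes encode homeodomain transcription factors that give body regions their identity along the head-to-tail axis. Within each cluster the genes keep an order by paralog group, and in the embryo genes of low-numbered groups are switched on earlier and nearer the head than those of group 13. In differentiated cells silent HOX genes are typically held under Polycomb repression, and parts of a cluster can be active in a pattern that reflects where the tissue came from. Myocardin binds no DNA by itself in its best known role, but joins the serum response factor SRF at the CArG box of muscle genes.

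The gene order matters for reading positions. HOXA runs from HOXA2 at its lower end through HOXA3, HOXA4, HOXA5, HOXA6, HOXA7, HOXA9, HOXA10 and HOXA11 to HOXA13. HOXB runs the same way from HOXB1 through HOXB2, HOXB3, HOXB4, HOXB5, HOXB6, HOXB7, HOXB8 and HOXB9 to HOXB13. The other clusters are turned round: HOXC begins with HOXC13 and goes on through HOXC12, HOXC11, HOXC10, HOXC9, HOXC8, HOXC6 and HOXC5 to HOXC4. HOXD begins with HOXD13, followed by HOXD12, HOXD11, HOXD10, HOXD9, HOXD8, HOXD4 and HOXD3, and ends with HOXD1. No GRCh37 gene annotation was used, so summits are placed by their distance from the group 13 end of the window and are not assigned to single genes.

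All 4 clusters were crowded with summits. HOXD carried 229 summits per Mb (exact Poisson 95% interval 151 to 333), HOXB 191 (138 to 258), HOXA 180 (114 to 270) and HOXC 174 (111 to 259). This amounts to a summit every 4.37 kb in HOXD, every 5.24 kb in HOXB, every 5.57 kb in HOXA and every 5.75 kb in HOXC. As a whole the 4 windows held 192 summits per Mb (159 to 230), against 36.8 per Mb over the remaining covered nuclear sequence. Covered sequence is the span from the first to the last summit of a chromosome without stretches of at least 1 Mb that hold no summit. These intervals treat summits as independent and cover counting error only.

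**Figure D1:**
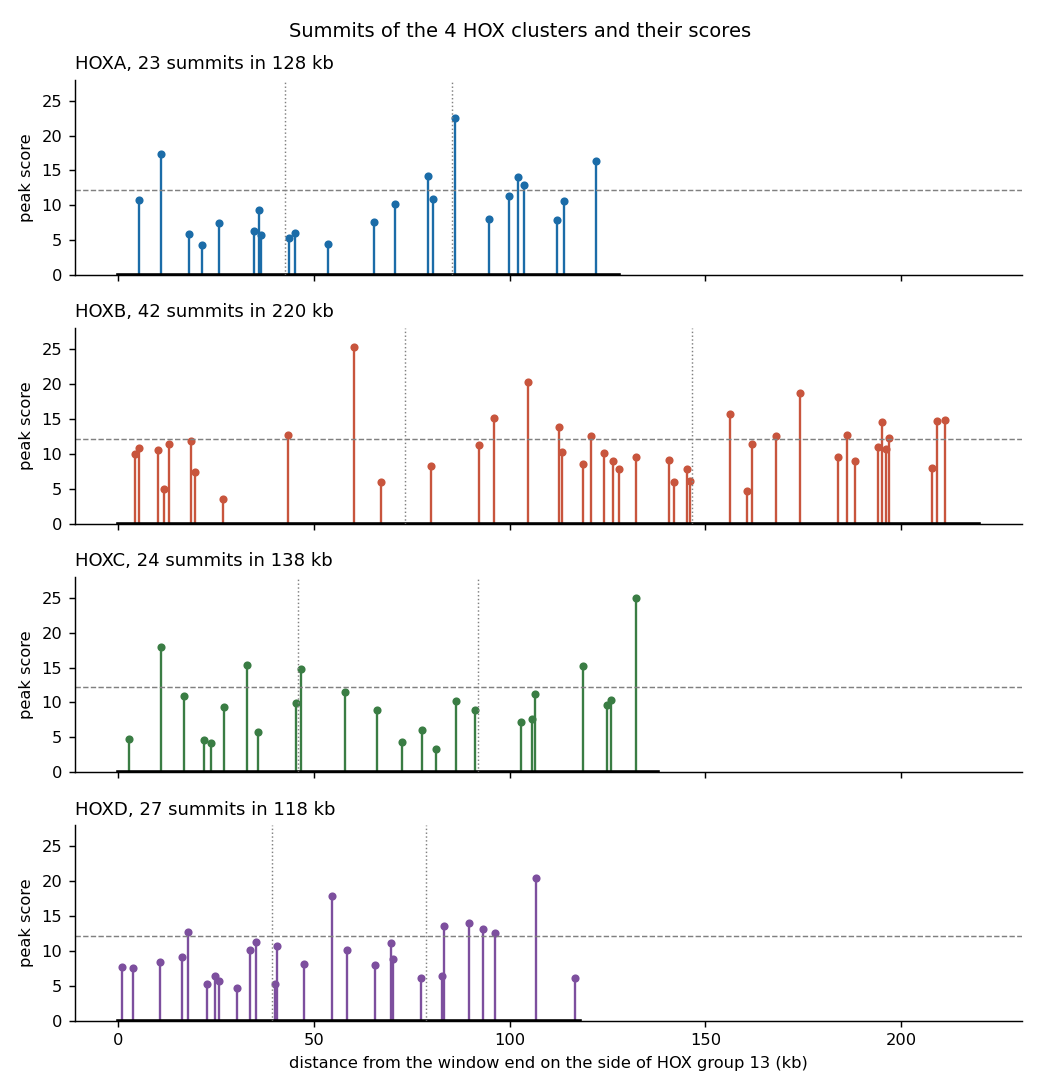
Every summit of HOXA, HOXB, HOXC and HOXD, with its distance from the group 13 end of the window in kb on the x axis and its peak score on the y axis. Black bars mark the windows, dotted lines divide each into 3 equal segments, and the dashed line marks the score of 12.2 that bounds the top 25% of the list; in HOXD, 5 of the 7 summits of the right-hand segment stand above it.

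Each cluster was denser than the rest of its own chromosome. HOXD exceeded the rest of chromosome 2 by 6.09 times (exact conditional 95% interval 4.01 to 8.86), at 229 against 37.6 summits per Mb. HOXA exceeded the rest of chromosome 7 by 4.41 times (2.80 to 6.63), at 180 against 40.7 per Mb. For HOXC on chromosome 12 the ratio was 4.25 (2.72 to 6.33), at 174 against 40.9 per Mb. HOXB stood out least, by 2.15 times (1.55 to 2.90), at 191 per Mb against 89.0 per Mb over the rest of chromosome 17. When only summits in the top 25% of scores were counted, the ratio was 5.55 for HOXD (2.23 to 11.5), 4.27 for HOXA (1.57 to 9.32), 3.09 for HOXC (1.0 to 7.23) and 2.76 for HOXB (1.5 to 4.64).

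Between the clusters the densities could not be told apart. All 6 pairwise ratios lay between 0.760 for HOXC over HOXD (0.420 to 1.37) and 1.10 for HOXB over HOXC (0.650 to 1.90), and each interval included 1. These intervals are wide, so they do not show that the clusters are equal. Relative to its chromosome HOXB differed from the others. After division by the chromosome densities, HOXB reached 0.353 times the value of HOXD (0.212 to 0.595) and 0.505 times that of HOXC (0.299 to 0.872), while HOXA reached 2.06 times that of HOXB (1.18 to 3.5). The 3 ratios among HOXA, HOXC and HOXD again included 1 after this division.

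**Figure D2:**
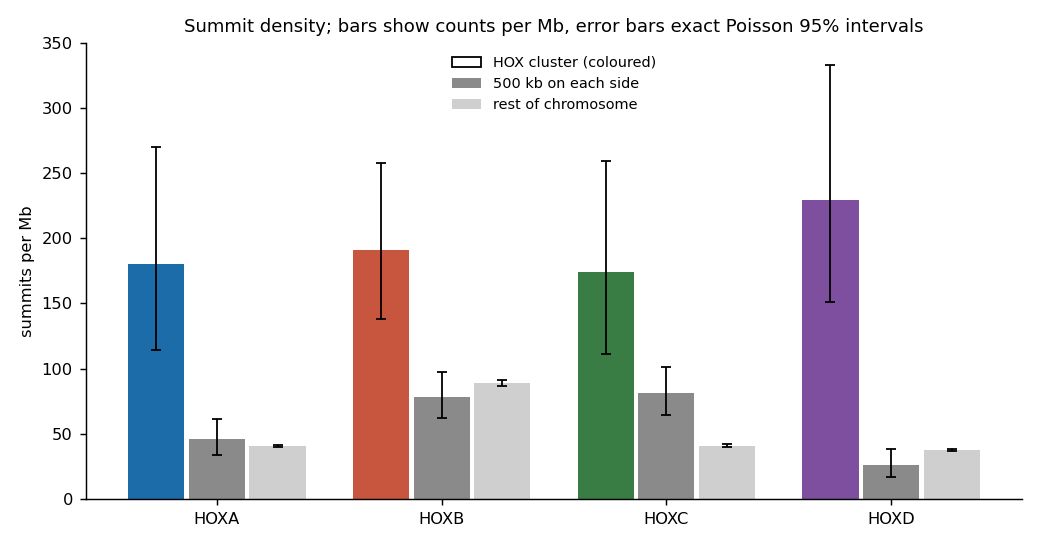
Summits per Mb in each HOX cluster (coloured), in the 500 kb on each side of it (dark grey) and in the rest of its chromosome (light grey), with exact Poisson 95% intervals as error bars. The clusters reach 174 to 229 per Mb, and the intervals of each cluster lie above those of its flanks and of its chromosome.

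Over flanks of 500 kb the excess was largest at HOXD. In the 500 kb on either side HOXD had 26 summits, 15 beyond its group 13 end and 11 beyond its HOXD1 end, or 26.0 per Mb. The cluster exceeded these flanks by 8.80 times (4.94 to 15.7), and flanks of 200 kb by 5.08 times (2.7 to 9.8). HOXA exceeded its flanks by 3.91 times (2.26 to 6.58), with 46 flanking summits, 29 on the HOXA13 side and 17 on the HOXA2 side. HOXB exceeded its flanks by 2.45 times (1.64 to 3.61), with 51 flanking summits on the HOXB13 side and 27 on the HOXB1 side. The flanks of HOXC held 81.0 summits per Mb, and HOXC exceeded them by 2.15 times (1.3 to 3.42). Its flank held 34 summits beyond HOXC13 and 47 beyond HOXC4.

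The dense runs of summits went past some edges of the windows. In the 50 kb just beyond the HOXA13 end of the window there were 10 summits, or 200 per Mb, a density like that of HOXA itself, against 3 beyond HOXA2. In the 50 kb beyond HOXD13 there were 7, against 3 beyond HOXD1, and in the 50 kb beyond HOXC4 there were 6, against 1 beyond HOXC13. HOXB had 5 beyond HOXB13 and 4 beyond HOXB1. With these flanks of 50 kb, a width chosen after seeing the data, the excess was 1.38 times for HOXA (0.671 to 2.97), with an interval that includes 1, 2.29 for HOXD (1.07 to 5.3), 2.48 for HOXC (1.04 to 6.83) and 2.12 for HOXB (1.02 to 4.96).

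Counts in 50 kb bins showed the same. Around HOXD the bins that begin 100 kb before, 50 kb before and at the centre held 9, 14 and 10 summits, and no other bin within 1 Mb held more than 4. Of the 9 only 2 lay inside the HOXD window. HOXA had 11, 9 and 11 summits in the bins that begin 50 kb before, at and 50 kb after its centre, and of the last 11 only 2 lay inside the window. In HOXB the bins on the low-numbered side of the centre held 13 and 13 summits, against 6 and 7 on the HOXB13 side, all inside the window. HOXC had 9, 9 and 8 in the bins that begin 50 kb before, at and 50 kb after its centre, with 3 of the 8 inside the window, and a bin that begins 350 kb beyond its centre held 10.

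**Figure D3:**
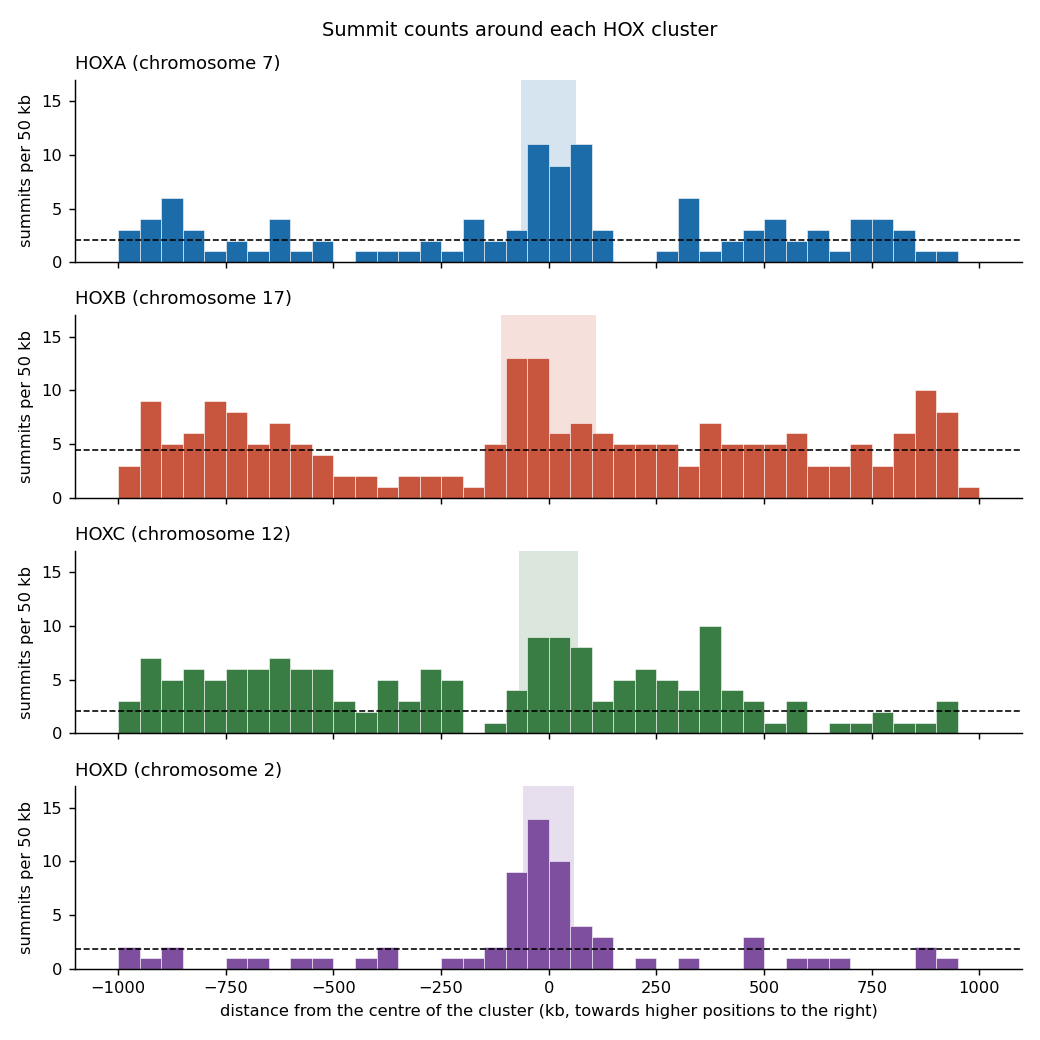
Summits per 50 kb bin (y axis) by distance in kb from the centre of each HOX cluster (x axis), with the cluster window shaded and the mean of the rest of the chromosome as a dashed line. The fullest HOXD bin holds 14 summits, and of the 9 in the bin before it 7 lie outside the window, on the HOXD13 side; the bins of HOXC and HOXB stand among fuller neighbours.

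Windows of the same length were then laid over the whole chromosome, outward from each cluster and without overlap. On chromosome 2 none of 2021 windows of 118 kb (0%) held as many summits as the 27 of HOXD; the median window held 3 and the fullest 22. On chromosome 12 only 1 of 944 windows (0.106%) matched the 24 summits of HOXC and none exceeded it, with a median of 4. On chromosome 7, 3 of 1212 windows (0.248%) held more than the 23 summits of HOXA, with a median of 4 and a maximum of 30. On chromosome 17, 1 of 352 windows (0.284%) matched the 42 summits of HOXB and none exceeded it, although the median there was 20. These are ranks within 1 set of non-overlapping windows per chromosome, given as a description with no test. With overlapping windows at every 10 kb, 74 of 15496 held at least the 23 summits of HOXA, and 99.52% held fewer. At least the count of HOXB was then held by 8 of 7729, that of HOXC by 8 of 13012 and that of HOXD by none of 23847. Gene density, base composition and mappability were not held equal between the clusters and the other windows, and their part in the ranks was not tested.

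**Figure D4:**
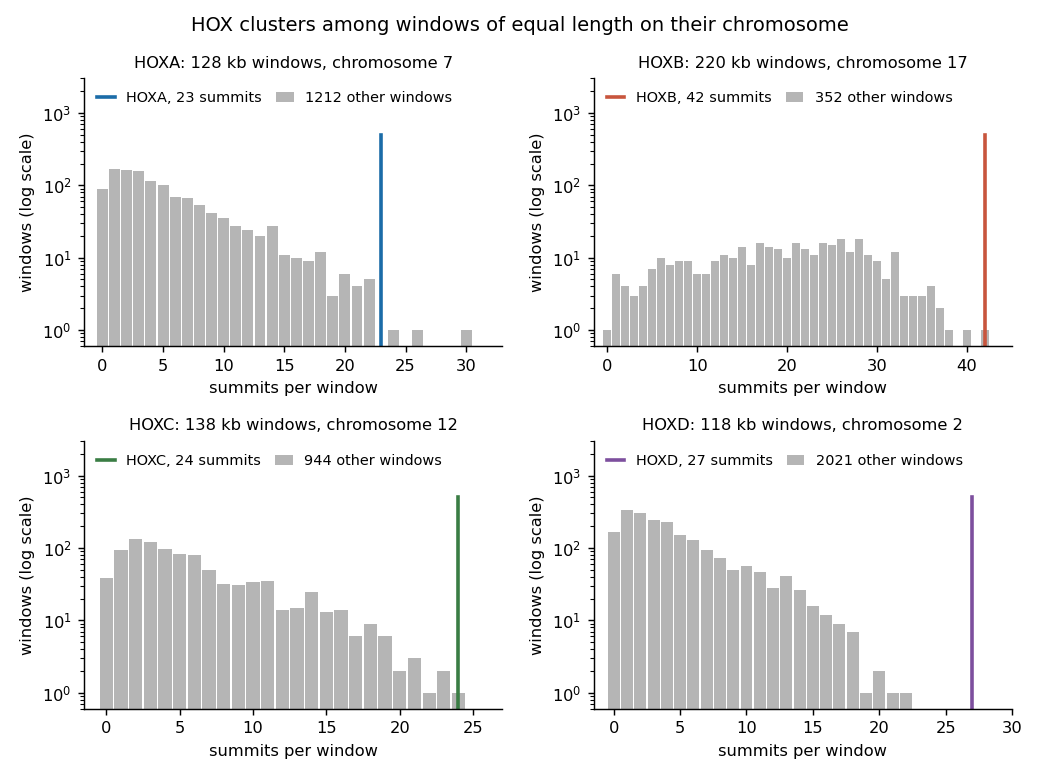
Number of windows (y axis, log scale) by summits per window (x axis) on the chromosome of each HOX cluster, for windows as long as the cluster, with the cluster itself as a coloured line. HOXD lies beyond every other window of chromosome 2, HOXB and HOXC share the top count with 1 window each, and 3 windows of chromosome 7 lie beyond HOXA.

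The clusters held no long stretch without a summit. The longest stretch without a summit was 10.5 kb in HOXD, from 177043285 to 177053826, and none of the 2021 other windows of chromosome 2 had so short a longest stretch; their median was 58.9 kb. In HOXC it was 12.2 kb, from 54428576 to 54440758, again shorter than in all 944 other windows, whose median was 58.1 kb. In HOXA it was 11.9 kb, from 27184599 to 27196466, and 2 of 1212 windows did not exceed it. In HOXB it was 16.8 kb, from 46755746 to 46772567, and 6 of 352 windows did not exceed it. That stretch of HOXB lies 43.4 to 60.3 kb from the HOXB13 end of the window, in the segment where HOXB was sparsest. A denser window leaves shorter empty stretches, so this measure is not independent of the counts.

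Neighbours were close. Another summit lay within 5 kb of 89 of the 116 HOX summits (76.7%, exact Clopper-Pearson 95% interval 68.0 to 84.1), against 37.9% of all nuclear summits. Within 10 kb the share was 114 of 116 (98.3%, 93.9 to 99.8), against 64.1% of all nuclear summits. No HOX summit was farther than 20 kb from the next, a distance that 17.6% of the other summits exceeded. The nearest neighbour lay 0.5 to 1.5 kb away for 42 HOX summits (36.2%, against 16.7% elsewhere), and it lay less than 0.5 kb away for 2 (1.72%, against 1.32%). Adjacent summits were a median of 3.77 kb apart in HOXB, 4.31 kb in HOXD, 5.34 kb in HOXC and 5.49 kb in HOXA. The closest pair, 466 bp apart, stood at 27213620 and 27214086 in HOXA. A denser window also brings neighbours nearer, so these distances are not independent of the counts.

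The peak scores of the clusters were near those of the list, and none was among its very highest. The score is the value the authors' peak caller gave each summit, and it ranks summits within the list. The median was 10.6 in HOXB, 9.52 in HOXC, 9.33 in HOXA and 8.82 in HOXD, against 8.50 over the whole list. Scores reached the top 25% of the list, at 12.2 or above, in 14 of 42 HOXB summits (33.3%, exact Clopper-Pearson 95% interval 19.6 to 49.5), 6 of 23 HOXA summits (26.1%, 10.2 to 48.4), 7 of 27 HOXD summits (25.9%, 11.1 to 46.3) and 5 of 24 HOXC summits (20.8%, 7.13 to 42.2). With ties this threshold takes in 26.3% of the list, a share that all 4 intervals include. None of the 116 reached a score of 30, which allows a share of up to 2.59% by 3 counts, against 0.974% of the list. At this number of summits a shortage of the highest scores is not detectable.

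In HOXA the 5 highest scores were 22.5 at 27163921, 17.4 at 27239028, 16.3 at 27128047, 14.2 at 27170777 and 14.1 at 27147826. The first of these stood 86.1 kb from the HOXA13 end and above 96.1% of the list. Of the 5, only the summit at 27239028 lay in the segment nearest HOXA13, a gene that patterns the limb ends and the genital tract.

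In HOXB the highest score of all HOX summits, 25.3, belonged to position 46755746, which ranks above 97.8% of the list. It is also the lower bound of the longest empty stretch of that cluster, 60.3 kb from the HOXB13 end. The next were 20.4 at 46711397, 18.7 at 46641810, 15.7 at 46659599 and 15.1 at 46720043. The upper bound of the stretch, at 46772567, scored 12.8.

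In HOXC a score of 25 at 54454274 led, 132.3 kb from the HOXC13 end and so close to the end where HOXC4 lies. It was followed by 18 at 54332969 near the HOXC13 end, 15.4 at 54354822, 15.2 at 54440758 and 14.8 at 54368840. The longest empty stretch of HOXC ended at 54440758, the summit with the fourth of these scores, and began at 54428576 with a score of 11.3.

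In HOXD the 5 highest scores were 20.4 at 177053826, 17.8 at 177001548, 14.0 at 177036609, 13.6 at 177030253 and 13.1 at 177040083. Apart from the one at 177001548, they lay in the segment nearest the HOXD1 end of the window. The summit at 177053826 closes the longest empty stretch of the cluster, which opens at 177043285 with a score of 12.6.

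Over the 4 clusters together, the low-numbered end had the larger share of high scores, while the number of summits was similar along them. Each window was divided into 3 equal segments from the group 13 end. Over the 4 clusters these held 39, 40 and 37 summits, of which 6, 7 and 19 scored in the top 25% of the list. The share was therefore 51.4% in the low-numbered segment (19 of 37, exact Clopper-Pearson 95% interval 34.4 to 68.1), against 16.5% in the other segments together (13 of 79, 9.06 to 26.5). The median score was 12.2 in the low-numbered segment, 9.0 in the middle and 8.46 at the group 13 end. This division of scores was looked at after the values were known, so it is a description with no test.

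The clusters differed in how marked this was. In HOXA the low-numbered segment had 4 of 8 summits in the top 25%, against 1 of 7 in the middle and 1 of 8 at the HOXA13 end, with medians of 12.1, 7.60 and 6.91. In HOXB it had 8 of 15, against 4 of 16 and 2 of 11, with medians of 12.2, 9.33 and 10.6. In HOXD it had 5 of 7, against 1 of 9 and 1 of 11, with medians of 13.1, 8.82 and 7.74. In HOXC the counts were 2 of 7, 1 of 8 and 2 of 9, with medians of 10.3, 8.94 and 9.39. HOXC and HOXD lie on their chromosomes in the opposite direction to HOXA and HOXB. In all 4 clusters the share in the top 25% and the median score were largest in the low-numbered segment. In HOXC the segments were closest to one another, with 2 of 7 against 2 of 9 at the HOXC13 end. The highest single score of HOXB, 25.3, lay in its segment nearest HOXB13. Whether scores follow the gene order was not tested. Leaving out any 1 cluster left the share at 46.7% to 56.7% in the low-numbered segment, against 13.5% to 18.6% in the others. Divided into 2 equal segments instead, a setting chosen after seeing the data, the clusters had 22 of 62 summits in the top 25% on the low-numbered side (35.5%, 23.7 to 48.7), against 10 of 54 on the group 13 side (18.5%, 9.25 to 31.4). In HOXC that division turned the order round, with 2 of 12 on the low-numbered side against 3 of 12 on the HOXC13 side. Whether HOXC differs from the other clusters was not tested.

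**Figure D5:**
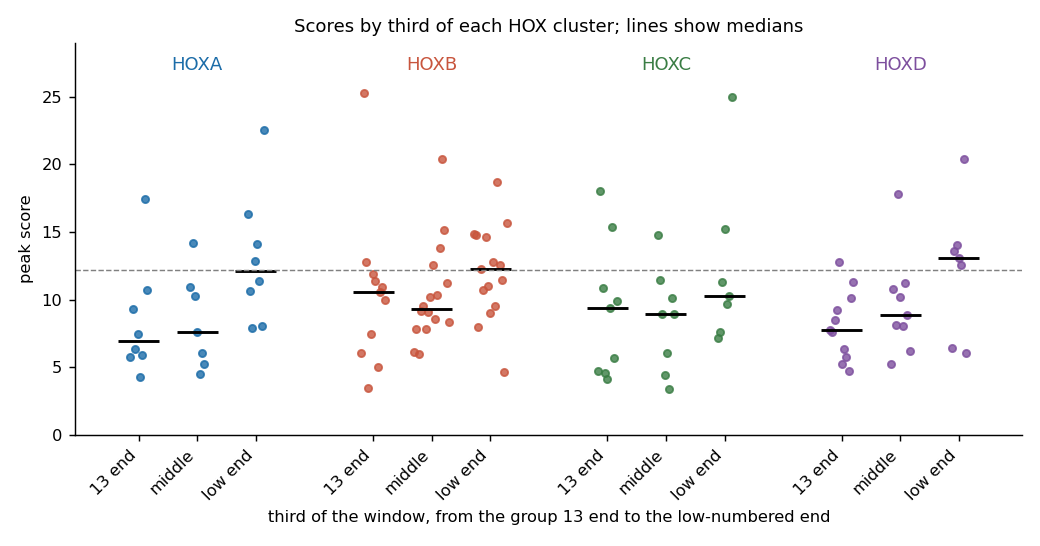
Peak scores (y axis) of the summits in each of the 3 equal segments of each cluster (x axis), from the group 13 end through the middle to the low-numbered end, with a black line at each median and a dashed line at the score of 12.2. The medians of the low-numbered segments are 12.1 in HOXA, 12.2 in HOXB, 10.3 in HOXC and 13.1 in HOXD.

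Density itself had no common direction along the clusters. HOXD was densest at the HOXD13 end, with 280 summits per Mb (exact Poisson 95% interval 140 to 500), against 178 (71.6 to 367) at the HOXD1 end. HOXB was sparsest at the HOXB13 end, with 150 (74.9 to 268), against 205 (114 to 337) at the HOXB1 end. HOXA held 188 at both ends, and HOXC 196 at the HOXC13 end and 152 at the HOXC4 end. All of these intervals overlap.

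Because summits with many neighbours scored lower than others elsewhere in the list, with a median of 7.83 against 8.50 for all summits outside HOX, the HOX summits were set beside summits that had as many others within 50 kb on either side, 10 to 26. There were 24039 such summits elsewhere, with a median of 12 neighbours, while the HOX summits had a median of 17. Scores lay in the top 25% for 27.6% of HOX summits (32 of 116, 19.7 to 36.7) and for 18.7% of the crowded summits elsewhere (18.2 to 19.2). The medians were 9.94 in HOX and 7.83 elsewhere. Among 4417 summits with at least 15 neighbours, nearer to the HOX clusters in crowding, the share was 18.1% (17 to 19.3) and the median again 7.83.

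Scores that many summits share were almost absent from the clusters. In the list 19 score values are each carried by at least 150 summits, and together they make up 29.4% of it. Of the 116 HOX summits 1 carried such a value (0.862%, 0.0218 to 4.71), the summit at 177005473 in HOXD, whose score of 10.2 recurs in 2733 summits. The share was 5.09% (4.81 to 5.37) among the crowded summits elsewhere and 3.12% (2.63 to 3.68) among those with at least 15 neighbours. The HOX interval lies below the first of these shares, 5.09%, but includes the second, 3.12%. Beside the summits with at least 15 neighbours, which are nearer to HOX in crowding, a shortage was therefore not detectable.

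Promoter sequences of the HOX genes were searched for the CArG box, the element at which SRF and Myocardin meet: CC, then 6 bases that are each A or T, then GG. The RefSeq promoter table (GRCh38.p14), with 250 bases before and 50 after each start, held 20 of the 38 HOX genes. They are 9 of the 10 in HOXA and 8 of the 9 in HOXD, but only HOXB1 in HOXB and HOXC4 and HOXC5 in HOXC, so the search says almost nothing of HOXB and HOXC. The box was found in none of these 20 on either strand (0%, with an exact 95% interval of 0 to 16.8 by Clopper-Pearson), and in 1.6% of the 27305 genes in the table. As a comparison, 5 of 9 SRF targets found in the table had it (55.6%, 21.2 to 86.3): SRF itself, the immediate early gene EGR1 and the actins ACTA1, ACTC1 and ACTG2. Of 7 HOX cofactor genes of the PBX, MEIS and PKNOX families none had it (0 to 41.0). The interval for HOX is wide enough to include the share of all genes.

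With 1 base other than A or T allowed in the core, 4 of the 20 HOX genes had a match (20%, 5.73 to 43.7), against 9.88% of all genes, and 1 of the 7 cofactor genes did (14.3%, 0.361 to 57.9). The matches are shown because they are the nearest that these HOX promoters come to the element, and boxes of EGR1 and SRF are given for comparison. Each line holds 30 bases of the strand that carries the gene, 5′ to 3′, with the 10 bases of the match in capitals. HOXD8 and HOXD10 act in limb and trunk patterning, and HOXA7 belongs to the middle groups of its cluster. The match in HOXA7 lies 88 bases before the start, that in HOXD8 82 bases before it, and those in HOXD12 220 and 5 bases before it, counted from the first base of the match. In HOXD10 the match begins at base 14 of the transcript.
HOXA7, chr7:27156744-27156773, minus strand: tcttgcccttCCATTCTAGGcggctgcggg
HOXD8, chr2:176129613-176129642, plus strand: tttatgggccCCCTTTAAGGccggcggagg
HOXD10, chr2:176116781-176116810, plus strand: gagatgtcagCCTACAAAGGacacaatctc
HOXD12, chr2:176099565-176099594, plus strand: cttcgctcaaCCTGATTTGGctctgctggc
HOXD12, chr2:176099780-176099809, plus strand: cagccgaagcCCTTTGTTGGagatgtgtga
EGR1, chr5:138465386-138465415, plus strand: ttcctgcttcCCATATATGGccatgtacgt
SRF, chr6:43171229-43171258, plus strand: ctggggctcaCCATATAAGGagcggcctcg

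These positions are in GRCh38.p14 and cannot be set beside the GRCh37 summits. A match describes letters only, and whether any HOX summit lies at one of these sequences was not tested.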

How the data were processed

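Chromatin of A549 cells overexpressing MYOCD was precipitated with anti-Myocardin or IgG, 1 library each, per the labels. The deposited data are 1 list of intervals of 1 bp with a score per peak, a value of the authors' peak caller whose unit the header does not give. The submitters' processing notes name CASAVA 1.4. The aligner, the caller's settings, its control and the read depth are not stated by the labels, the notes or the header. Those notes name mm9 and GRCh38.p12, but 1093 summits lie past a chromosome end of GRCh38 and 0 past one of GRCh37 (lengths from GenomeInfoDb 1.38.1), so positions are given in GRCh37, 1-based, with the end column as the summit.

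Counts carry exact Poisson 95% intervals, density ratios exact conditional binomial ones and shares Clopper-Pearson ones (SciPy 1.17.1). They cover counting error only, and summits are not replicates. Non-overlapping windows of equal length, laid outward from each cluster, were taken in place of random ones. Windows that touched empty sequence of 1 Mb or more, or reached past the first or last summit, were left out. The window and ratio procedures were tested on simulated lists whose summits were placed uniformly at random, apart from a planted excess. Such lists lack the uneven spread of summits along the real chromosomes, so how the intervals perform under that spread was not tested. Of each cluster the 5 summits with the highest scores and those bounding the longest empty stretch were named, as was every HOX promoter with a match; the closest HOXA pair and the summit with a shared score were picked after their values were seen, and EGR1 and SRF stand for the comparison list. The clusters, lists and comparisons were chosen with earlier results of these data known. No column of per-sample values was set aside (0 columns).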

Additional observations from a re-analysis of the deposited data

How the results depend on the processing

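Of 73 alternative values over 28 results, 60 kept their direction and lay within the margin of the value reported, 9 kept their direction and lay outside it and 4 changed direction. Density over the rest of the chromosome stayed above 1 in every setting tried, from 1.62 to 6.51, and over the flanks from 1.38 to 10.2. The 1.62 belonged to HOXB with summits within 2 kb counted once (1.07 to 2.36), against 2.15 in the main setting. Counted that way, the ratio was 3.7 for HOXA, 3.95 for HOXC and 5.1 for HOXD. Flanks of 50 kb, added after seeing the data, gave 1.38 for HOXA and 2.29 for HOXD. Among windows within 10 Mb, 100% held fewer summits than HOXA, HOXB and HOXC. With the top 25% of scores alone, 99.26% of windows held fewer summits than HOXA, 95.66% than HOXC and 99.75% than HOXD. HOXB then exceeded HOXD in density by 1.07 times (0.405 to 3.14), a setting chosen after seeing the data. The share of high scores over that of the list was 1.04 in HOXA for the top 25% within chromosome 7. For the top 10% it was below 1 in every cluster: 0.434 in HOXA, 0.714 in HOXB, 0.74 in HOXD and 0.832 in HOXC. Of the 116 HOX summits, 8 (6.9%) scored in the top 10%, against 10.0% of the list. Divided at its mid-point, HOXA had a HOXA13 side that held 0.957 times an even share of summits. With 1 mismatch in the CArG box, 20% of HOX genes had a match. For these differences the cause was not tested. No paired analysis was possible because each antibody has 1 library, which also leaves no replicate to omit. Read depth is unknown, so its limit cannot be stated.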

Other observations

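Among the non-overlapping windows, those that held at least as many summits as a HOX cluster lay far from it. On chromosome 7 a window from 102130000 to 102257999 held 30 summits, against 23 in HOXA, and the next were a neighbouring pair from 157554000 to 157681999 with 26 and from 157426000 to 157553999 with 24. The window of chromosome 17 that shares the 42 summits of HOXB runs from 7216000 to 7435999, and the one of chromosome 12 that shares the 24 of HOXC runs from 132568000 to 132705999. On chromosome 2 the fullest window after the 27 summits of HOXD, from 74641000 to 74758999, held 22. These positions are in GRCh37, and they were picked after the counts were seen. No gene was assigned to them.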
